A study of Mus musculus with 12 samples.

Results

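Synaptotagmins, syntaxins, VAMPs (vesicle-associated membrane proteins) and SNAPs (synaptosome-associated proteins) carry out the docking and fusion of vesicles with membranes. Their genes were taken by name from the deposited table of gene expression: every mouse gene whose symbol is Syt, Stx, Vamp or Snap followed by a number and an optional closing letter. The rule found 43 of 51341 genes, namely 17 Syt, 15 Stx, 7 Vamp and 4 Snap genes, and all of them were annotated as protein-coding. Of these, 39 reached 1 FPKM (a fragment count divided by gene length and library size) in at least 3 mice and were tested. Syt8, Syt10, Stx19 and Vamp9 did not reach that level and are given as values only.

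The tissue was the trigeminal ganglion, the sensory ganglion of the face and the meninges, from 12 CD1 mice, an outbred stock. The groups were 6 mice titled responders and 6 titled nonresponders to PACAP (pituitary adenylate cyclase-activating polypeptide), with 3 males and 3 females in each. The sources used here name no genotype, age or untreated group, and they do not say how a response was scored or how long after PACAP the ganglia were taken. Each mouse gave 1 library of polyadenylated RNA from frozen ganglia, and the series concerns light aversion after PACAP and its relation to CGRP, a migraine neuropeptide.

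In vesicle fusion, a VAMP on the vesicle zips together with a syntaxin and a SNAP on the target membrane into a SNARE bundle that pulls the membranes together. Synaptotagmins sit on vesicles or on the target membrane, and those that bind calcium couple its entry to fusion. Sensory neurons use this machinery to release glutamate at their central terminals and neuropeptides such as CGRP from dense-core vesicles, while other members of the families serve traffic between endosomes, Golgi and endoplasmic reticulum in every cell.

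The values of a mouse summed to between 286388 and 358590 FPKM. The step between low values implied 18100000 to 38600000 fragments in responders and 22800000 to 39600000 in nonresponders. These are rough estimates, since the step was faint in every mouse. The markers of sensory neurons, 22 genes, summed to 3811 to 7704 FPKM in responders and 4269 to 6535 FPKM in nonresponders. Of these, P2rx3 was low, at 0.12 to 1.42 FPKM in responders and 0.079 to 2.08 FPKM in nonresponders, and was not tested. Responder 1, responder 3, nonresponder 3 and nonresponder 4 stood apart. Responder 3 had the highest values of the central nervous system genes Gad1 (1.07 FPKM), Gad2 (2.29 FPKM) and Neurod2 (2.67 FPKM). In the other mice these did not pass 0.024, 0.50 and 0.76 FPKM. Its sum over the 10 genes of that list was 304.7 FPKM, within the nonresponder range of 168.5 to 484.4 FPKM. Responder 1, which had the lowest implied depth, held 77880 FPKM of 7 pituitary hormone transcripts, against 359.1 to 6845 FPKM in the other 5 responders and 27.2 to 1053 FPKM in nonresponders, and it had the lowest neuron sum. Nonresponder 4, which had the highest implied depth, held 4290 FPKM of 10 neutrophil transcripts, against 8.08 to 884.7 FPKM in the other 11 mice. Skeletal muscle transcripts (12 genes) summed to 2186 FPKM in nonresponder 3 and 2474 FPKM in nonresponder 4, while responders lay between 28.9 and 568.4 FPKM and the other 4 nonresponders between 59.2 and 643.9 FPKM. Markers of myelinating Schwann cells summed to 2400 to 4609 FPKM in responders and 4379 to 6498 FPKM in nonresponders, and those of fibroblasts and meninges to 272.9 to 535.5 FPKM in responders and 573.9 to 1651 FPKM in nonresponders, ranges that did not overlap, with nonresponder 3 the highest. In bulk tissue, fewer cells of a type and less RNA per cell cannot be told apart.

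**Figure D1:**
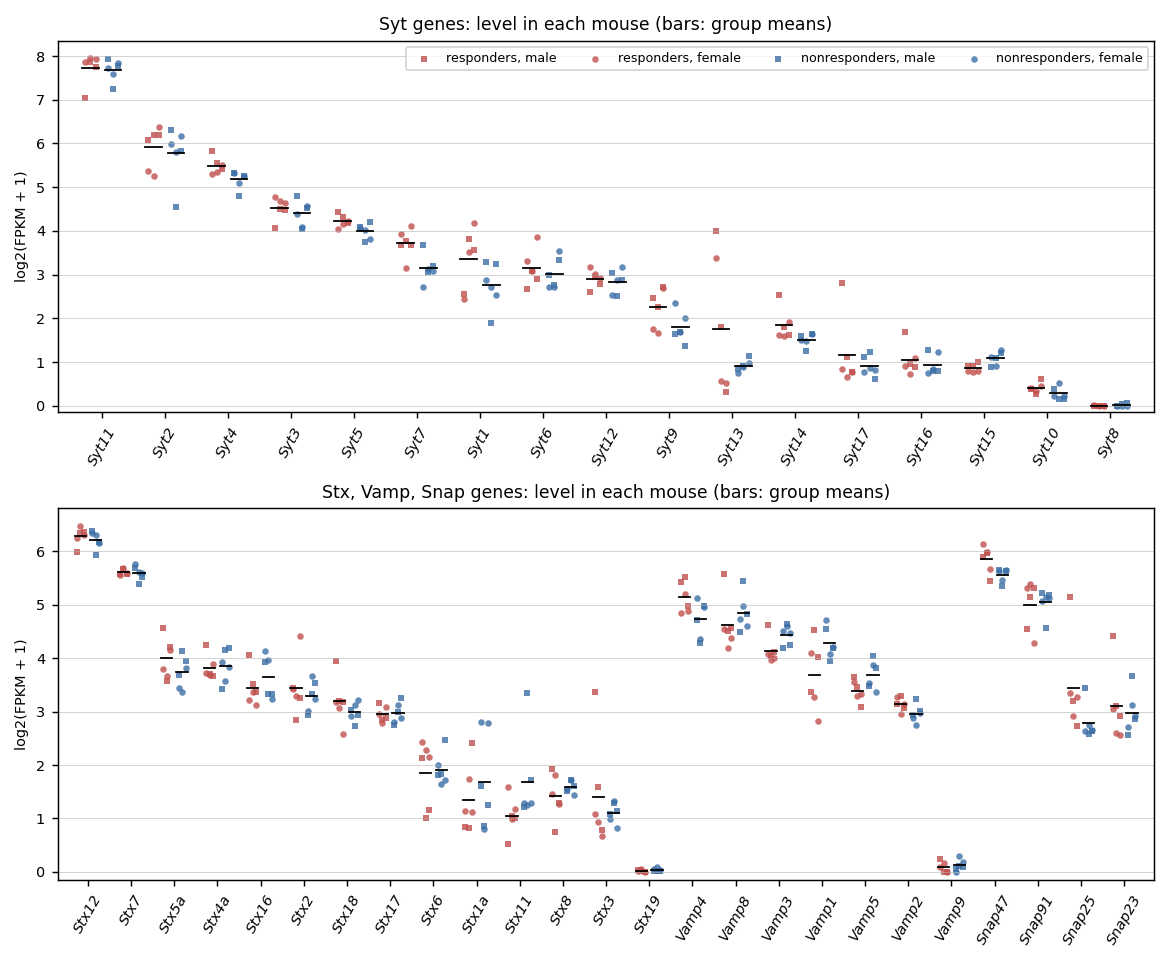
Level of the reported genes in each mouse, as log2(FPKM + 1), with the Syt genes above and the Stx, Vamp and Snap genes below. Red marks are responders and blue marks nonresponders, squares are males, circles females, and bars are group means of 6 mice. Syt11 stands at the top, and the ranges of the groups overlap in every gene shown. In Vamp3 the overlap comes only from responder 1, and in Snap47 only from responder 6.

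The plot of levels runs from Syt11, the most abundant of the 43 genes by listed value, to Syt8, which was listed at 0 in 9 of the 12 mice. Orders between genes, here and below, are those of the listed values. Which transcripts of a gene a value covers is not said in the sources used here, so the order of whole-gene levels could differ and was not tested. A mean over all mice of at least 100 FPKM was reached by 1 member, at least 50 FPKM by 5, and at least 10 FPKM by 19. Of the 39 tested genes, 28 lay above the median level of the 14203 genes tested and 7 in the top 10%. Summed over the families, Syt transcripts came to 414.5 ± 42.1 FPKM in responders and 371.3 ± 65.5 FPKM in nonresponders (SD, n = 6 each), and Stx transcripts to 261.0 ± 11.4 FPKM in responders and 248.5 ± 14.8 FPKM in nonresponders. The Vamp sum was 107.1 ± 20.6 FPKM in responders and 113.2 ± 8.46 FPKM in nonresponders. The Snap sum was 110.2 ± 19.7 FPKM in responders and 92.0 ± 7.03 FPKM in nonresponders. All of these group ranges overlapped.

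Of the synaptotagmins, Syt11 was the most abundant. It does not bind calcium through its first C2 domain and is known for restraining endocytosis. Its level was 130.5, 231.2, 230.7, 246.8, 242.8 and 214.2 FPKM in responders 1 to 6, and 210.3, 242.6, 192.5, 151.7, 216.1 and 226.9 FPKM in nonresponders 1 to 6. Responder 1 and nonresponder 4 were the lowest of their groups, and the other values overlapped. Syt11 alone made up 51.8% ± 8.05 of the Syt sum in responders and 55.9% ± 1.62 in nonresponders (SD, n = 6 each).

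Among the fast calcium sensors of synaptic vesicles, Syt2 was above Syt1 in every mouse. Syt2 averaged 61.7 ± 18.5 FPKM in responders and 57.4 ± 19.4 FPKM in nonresponders, and Syt1 averaged 10.1 ± 4.81 FPKM in responders and 6.09 ± 2.28 FPKM in nonresponders. Syt1 made up 6.86% to 21.9% of the pair's sum in responders and 6.31% to 13.2% in nonresponders. Syt9, the third fast sensor, averaged 3.98 ± 1.47 FPKM in responders and 2.54 ± 0.89 FPKM in nonresponders. The order Syt2, Syt1, Syt9 thus held for the means of both groups, and the ranges of Syt2 (37.3 to 81.6 FPKM in responders, 22.4 to 78.4 FPKM in nonresponders) lay apart from those of Syt1 (4.47 to 17.0 FPKM in responders, 2.71 to 8.72 FPKM in nonresponders).

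Next in order among the Syt genes came Syt4, the close relative of Syt11 on dense-core vesicles, with a mean over all mice of 39.8 FPKM, Syt3, a sensor of high calcium affinity, with 21.4 FPKM, and Syt5, with 16.4 FPKM. Syt3 averaged 22.3 ± 3.73 FPKM in responders and 20.6 ± 4.38 FPKM in nonresponders, and its ranges overlapped with those of Syt5. Syt6 (7.73 FPKM over all mice) and Syt12 (6.39 FPKM) also had at least 1 FPKM in every mouse. Syt14, Syt16, Syt15 and Syt17, which lack the calcium-binding residues or are little studied, averaged 0.98 to 2.29 FPKM over all mice. Syt10 lay between 0.21 and 0.53 FPKM in responders and between 0.11 and 0.44 FPKM in nonresponders. Syt8 reached at most 0.018 FPKM in responders and 0.037 FPKM in nonresponders.

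Syntaxins of the endosome were among the most abundant of their family. Stx12, also called syntaxin 13, works in recycling endosomes and averaged 77.3 ± 8.77 FPKM in responders and 73.7 ± 8.24 FPKM in nonresponders. Stx7, of late endosomes, averaged 47.8 ± 2.07 FPKM in responders and 47.5 ± 4.34 FPKM in nonresponders. Stx7 varied least over the 12 mice of all 43 genes, with a coefficient of variation of 6.82%.

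Stx1a, a syntaxin of the nerve terminal, had 0.80, 0.77, 1.19, 2.33, 1.18 and 4.33 FPKM in responders 1 to 6, and 5.97, 2.05, 0.74, 0.83, 1.38 and 5.93 FPKM in nonresponders 1 to 6. Responder 6 and nonresponders 1 and 6 were high, the other 9 mice did not pass 2.33 FPKM, and the groups overlapped. The sources used here do not say which transcripts of a gene a value covers. A gene outside these families, Actb, was listed at 9.71 to 18.4 FPKM in 7 mice and at 169.7 to 355.7 FPKM in the other 5. The mice high for Actb, responders 1, 3 and 6 and nonresponders 2 and 6, were only partly those high for Stx1a. Nonresponder 1 had 11.7 FPKM of Actb. A jump in a listed value was thus not particular to Stx1a, and the source of either jump was not tested.

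Most of the other syntaxins follow traffic routes outside the synapse. Stx5a, of the route from endoplasmic reticulum to Golgi, averaged 15.4 ± 4.45 FPKM in responders and 12.5 ± 2.77 FPKM in nonresponders, and Stx4a, a plasma membrane syntaxin of many cell types, averaged 13.3 ± 2.44 FPKM in responders and 13.7 ± 3.06 FPKM in nonresponders. Stx16, of the trans-Golgi network, Stx2, of the plasma membrane, Stx18, of the endoplasmic reticulum, and Stx17, of autophagosomes, averaged 6.81 to 11.0 FPKM over all mice. Stx6, Stx1a, Stx11, Stx8 and Stx3 averaged 1.81 to 2.85 FPKM over all mice, and Stx19 reached at most 0.036 FPKM in responders and 0.063 FPKM in nonresponders.

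In the Vamp family, Vamp4, a SNARE of the trans-Golgi network and of vesicles retrieved in bulk at nerve terminals, had the highest mean over all mice, 30.5 FPKM. Vamp8, which serves late endosomes and secretion in blood and gland cells, followed with 26.7 FPKM, and Vamp3, the widely expressed cellubrevin, with 18.9 FPKM. The synaptobrevins Vamp1 and Vamp2 averaged 15.8 and 7.34 FPKM over all mice. Vamp1 exceeded Vamp2 in 11 of 12 mice: it made up 43.7% to 71.6% of the pair's sum in responders, with only responder 5 under 50%, and 63.1% to 79.8% in nonresponders. Vamp5, known from muscle, averaged 9.59 ± 1.46 FPKM in responders and 12.01 ± 2.39 FPKM in nonresponders. Vamp9 did not pass 0.18 FPKM in responders or 0.23 FPKM in nonresponders.

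Of the genes named Snap, Snap47, a relative of Snap25 found on inner membranes and axons, had the highest listed mean, 51.8 FPKM over all mice. Snap91 encodes the clathrin assembly protein AP180, which is no SNARE and came in by its symbol; it averaged 32.3 ± 9.57 FPKM in responders and 32.5 ± 4.98 FPKM in nonresponders. Snap25, the SNARE of the nerve terminal and a target of botulinum toxin, and Snap23, its widely expressed counterpart, had medians of 8.39 and 6.90 FPKM in responders, against 5.28 and 6.42 FPKM in nonresponders.

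The upstream sequences of the most abundant member of each family follow for a comparison of their base composition, with GC boxes (GGGCGG on either strand), which Sp1 family factors can bind, in capitals. They are the 250 bases before a RefSeq start on GRCm38.p6, read along the gene's strand, and for Syt11, Stx12 and Snap47 that start lies inside the GENCODE gene. The Syt11 sequence is chr3:88772600-88772849 (minus strand, 51.2% G or C), that of Stx12 is chr4:132884459-132884708 (minus strand, 66.0%), that of Vamp4 is chr1:162570265-162570514 (plus strand, 57.2%) and that of Snap47 is chr11:59450035-59450284 (minus strand, 64.0%).
Syt11: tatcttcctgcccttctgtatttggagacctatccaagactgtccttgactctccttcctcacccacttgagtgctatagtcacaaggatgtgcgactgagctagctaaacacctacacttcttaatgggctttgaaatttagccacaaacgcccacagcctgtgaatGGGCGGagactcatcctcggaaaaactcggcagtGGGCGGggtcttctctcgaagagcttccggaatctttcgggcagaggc
Stx12: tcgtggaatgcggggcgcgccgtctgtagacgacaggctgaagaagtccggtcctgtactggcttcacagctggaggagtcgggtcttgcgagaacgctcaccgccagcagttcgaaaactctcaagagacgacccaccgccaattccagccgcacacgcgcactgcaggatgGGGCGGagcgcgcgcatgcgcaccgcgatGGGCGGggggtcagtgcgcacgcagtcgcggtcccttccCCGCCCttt
Vamp4: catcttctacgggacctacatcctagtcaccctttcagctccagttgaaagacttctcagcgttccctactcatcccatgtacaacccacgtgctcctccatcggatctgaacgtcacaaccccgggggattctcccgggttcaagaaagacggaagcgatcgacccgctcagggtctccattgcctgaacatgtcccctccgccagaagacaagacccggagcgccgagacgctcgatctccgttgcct
Snap47: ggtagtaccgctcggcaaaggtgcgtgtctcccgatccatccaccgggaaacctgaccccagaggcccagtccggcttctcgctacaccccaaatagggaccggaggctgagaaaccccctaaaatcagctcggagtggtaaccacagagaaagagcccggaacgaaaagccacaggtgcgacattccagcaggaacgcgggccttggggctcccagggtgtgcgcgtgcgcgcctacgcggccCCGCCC

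These 4 sequences held 2 GC boxes in Syt11, 3 in Stx12, 0 in Vamp4 and 1 in Snap47, and 30 CpG dinucleotides in Stx12 against 9 in Syt11. RefSeq windows from 250 bases before to 50 after a start were at hand for 33 of the 43 genes. Of these, 27 (81.8%) held a GC box on either strand in at least 1 window. The share was 49.2% of 17492 protein-coding genes with such windows. Vamp4, which has 2 windows, was among the 27, although its 250 bases printed above held 0. A TATA box (TATAAA on either strand) was in the windows of 2 of the 33 genes (6.06%), Stx2 and Stx3, against 14.8% of all coding genes. The cAMP response element TGACGTCA, the site of CREB downstream of PACAP receptors, was in 0 of the 33 genes and in 2.54% of all coding genes, which says only that these letters are not in these windows.

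On the genome, 7 of the 43 genes lay on chromosome 7, more than on any other. Vamp5 (chr6:72368794-72380468) and Vamp8 (chr6:72385223-72390703) lie 4754 bases apart on the minus strand (GRCm38). The sources used here do not say whether reads were assigned by strand. Several members overlap other genes: the whole of Vamp3 (chr4:151047300-151057963) lies within Camta1 on the same strand, Vamp1 (chr6:125215551-125245964) overlaps Tapbpl and Cd27 on the opposite strand, Stx18 overlaps Nsg1 by 574 bases, and a Snap47 transcript shares 307 identical bases with Jmjd4. Reads in such stretches could be assigned to either gene.

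The comparison of responders with nonresponders asks whether the fusion machinery of the ganglion differs with the response to PACAP. By limma with Benjamini-Hochberg adjustment over the 14203 genes tested and sex as a covariate, 3 genes passed an adjusted p of 0.05, or 0.0211%, and 0 of the 39 tested members were among them. At an unadjusted p under 0.05 there were 8 members (20.5%), against 7.4% of all genes tested. Of these 8, the estimates of Syt7, Syt4, Syt5, Vamp4 and Snap47 were above 0 and those of Syt15, Vamp3 and Vamp1 below it. The groups did not overlap in 0 of the 39 members, against 0.549% of all genes tested. All 39 estimates, made on log2(FPKM + 1), were under 1 log2 unit. The 95% interval stayed within a 2-fold difference of FPKM + 1 for 32 members and reached it for 7. In genes near 1 FPKM, that bound allows a larger difference of FPKM itself.

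**Figure D2:**
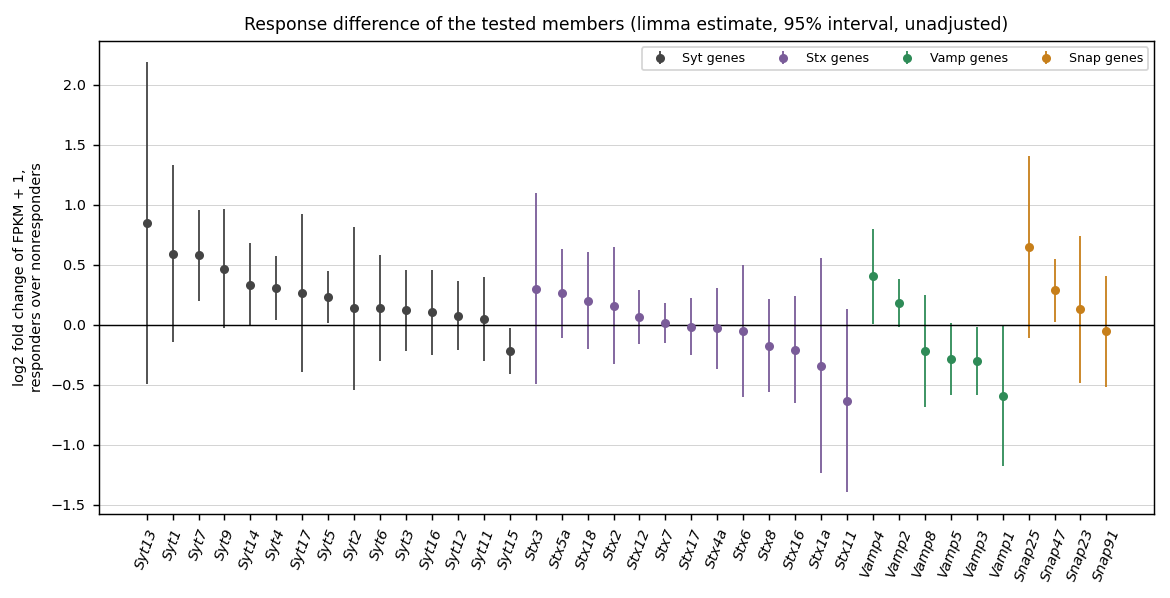
Difference between responders and nonresponders in the tested genes that are reported, as log2 fold change of FPKM + 1 (responders over nonresponders) from limma, with unadjusted 95% intervals, 12 mice, grouped by family and ordered by estimate. The estimates of 14 of 15 Syt genes lie above 0, while the Stx genes lie on both sides, and none passed the adjusted threshold.

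Taken by family, 14 of the 15 tested Syt genes had an estimate above 0, with a median log2 fold change of 0.23, and Syt15 was the exception. Of 14 Stx genes, 7 lay above and 7 below 0, with a median of -0.0011 whose sign changed with the settings. Of 6 Vamp genes, 2 lay above and 4 below 0, with a median of -0.25, and of the 4 Snap genes 3 lay above and 1 below, with a median of 0.21. Over all genes tested, 50.7% lay above 0 and the median was 0.0034. Without responder 1, the Syt genes stood at 12 above and 3 below 0 with a median of 0.20, and without both responder 1 and nonresponder 4 at 11 above and 3 below with a median of 0.14. Without responder 1, 6 members (15.4%) had an unadjusted p under 0.05, against 9.09% of all genes tested in that fit. They were Syt7 and Syt1 (log2 fold changes 0.60 and 0.77) and, below 0, Syt15, Vamp3, Vamp5 and Vamp8; Syt4, Syt5, Vamp1, Vamp4 and Snap47 were not among them. Over the 39 members the count was 26 above and 13 below 0 with all mice, 23 above and 16 below without responder 1, and 20 above and 18 below, of 38 tested, without both.

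**Figure D3:**
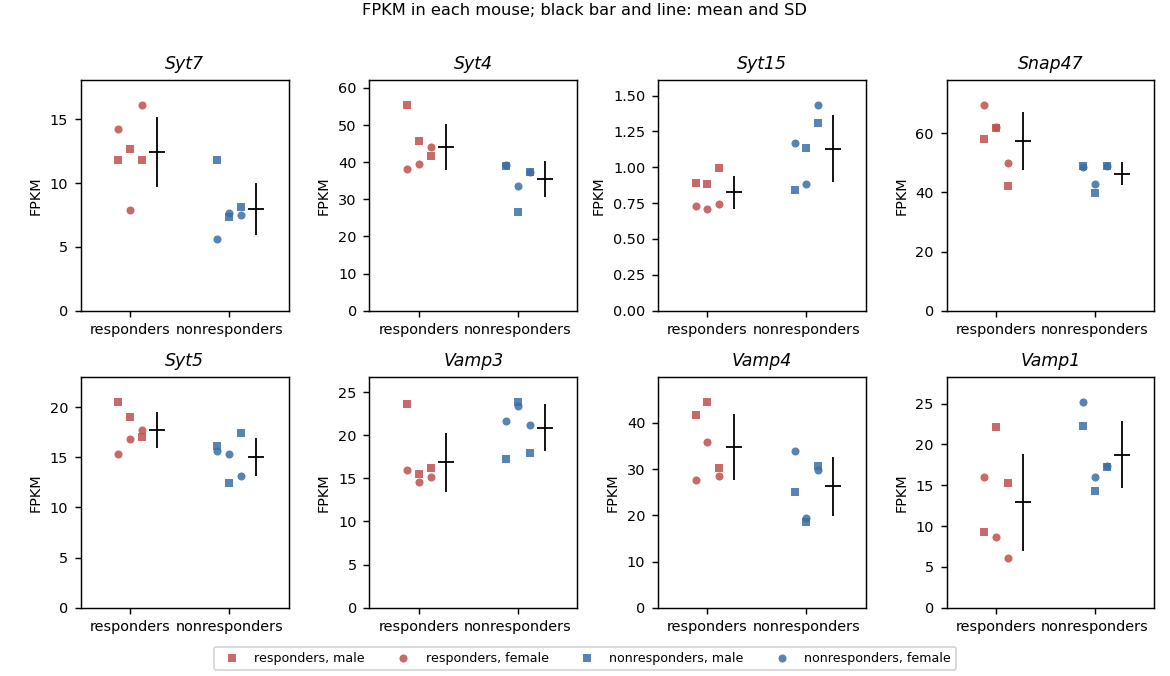
FPKM in each mouse for the 8 genes with an unadjusted p under 0.05, responders left and nonresponders right in each panel, squares males and circles females, with the mean and SD of 6 mice. In every panel the groups overlap: Syt7 has 2 nonresponders, at 8.10 and 11.8 FPKM, within the range of the responders.

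Of the 39 tested genes, Syt7 had the smallest p. Syt7 (chr19:10389090-10453180, plus strand, GRCm38) encodes the high-affinity calcium sensor of slow and asynchronous release and of vesicle replenishment, also used on dense-core vesicles. Its level was 11.8, 12.7, 14.3, 7.93, 16.2 and 11.8 FPKM in responders 1 to 6, and 5.62, 11.8, 7.69, 7.33, 8.10 and 7.49 FPKM in nonresponders 1 to 6. Responders were the higher group except responder 4, and among nonresponders only nonresponder 2 was as high as a typical responder, so the groups overlapped. The means were 12.4 ± 2.77 FPKM in responders and 8.005 ± 2.05 FPKM in nonresponders (SD, n = 6 each). The log2 fold change was 0.58 (SE 0.17, 95% interval 0.20 to 0.96), with an adjusted p of 0.51 by limma, and its p ranked 183 among those of the 14203 genes. Within each sex the estimate was 0.75 in females and 0.40 in males. It stayed above 0, between 0.48 and 0.69, in all 24 other settings, and its unadjusted p was under 0.05 in each of them.

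Syt4, whose product sits on dense-core vesicles and does not bind calcium through its first C2 domain, had 55.5, 45.7, 38.3, 39.6, 44.2 and 41.5 FPKM in responders 1 to 6, and 39.4, 39.0, 33.5, 26.7, 37.3 and 37.3 FPKM in nonresponders 1 to 6. Responder 1 was the highest and nonresponder 4 the lowest, and the groups overlapped only through responder 3 and nonresponders 1 and 2. The means were 44.1 ± 6.21 FPKM in responders and 35.5 ± 4.81 FPKM in nonresponders, with a log2 fold change of 0.31 (SE 0.12, 95% interval 0.04 to 0.57) and an adjusted p of 0.63. Without responder 1 the estimate was 0.24 and its unadjusted p was above 0.05, and without both responder 1 and nonresponder 4 it was 0.16.

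Syt5 lay between 15.4 and 20.5 FPKM in responders, with a median of 17.4 FPKM, and between 12.4 and 17.5 FPKM in nonresponders, with a median of 15.5 FPKM. Responder 1 was again the highest mouse and nonresponder 4 the lowest. Its log2 fold change was 0.23 (SE 0.10, 95% interval 0.02 to 0.44, adjusted p 0.64), and 0.20 with an unadjusted p above 0.05 without responder 1. Syt15 was low throughout, between 0.71 and 0.99 FPKM in responders and between 0.84 and 1.44 FPKM in nonresponders, with a log2 fold change of -0.22 (SE 0.09, adjusted p 0.64) and 4 of 12 mice at 1 FPKM or more.

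Within the Vamp family, the estimate of Vamp4 lay above 0 and those of Vamp1 and Vamp3 below it. Vamp4 (chr1:162570515-162599084, plus strand) had 41.6, 44.6, 27.7, 35.8, 28.6 and 30.3 FPKM in responders 1 to 6, and 34.0, 25.1, 19.4, 18.5, 30.6 and 29.9 FPKM in nonresponders 1 to 6. The 3 highest values were from responders and the 3 lowest from nonresponders, and the middle of the range was shared. The log2 fold change was 0.40 (SE 0.18, 95% interval 0.01 to 0.80), with an adjusted p of 0.66, and it was 0.26 without responder 1 and nonresponder 4. As a share of the Vamp sum, Vamp4 held 27.3% to 38.9% in responders and 14.999% to 27.7% in nonresponders, with an overlap of responder 3 and nonresponders 1 and 6.

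Vamp1 had 9.29, 22.2, 16.0, 8.68, 6.08 and 15.3 FPKM in responders 1 to 6, and 25.2, 22.2, 16.0, 14.3, 17.3 and 17.4 FPKM in nonresponders 1 to 6. Responders 1, 4 and 5 lay below every nonresponder, and the other responders lay among them. The log2 fold change was -0.59 (SE 0.27, 95% interval -1.18 to -0.01), with an adjusted p of 0.66, and -0.50 with an unadjusted p above 0.05 without responder 1. Vamp2, the other synaptobrevin, lay between 6.72 and 8.79 FPKM in responders and between 5.71 and 8.39 FPKM in nonresponders, with a log2 fold change of 0.18 (SE 0.09, adjusted p 0.69).

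Vamp3 had 23.6, 15.5, 16.0, 14.5, 15.1 and 16.2 FPKM in responders 1 to 6, and 21.7, 17.2, 23.3, 23.9, 17.9 and 21.2 FPKM in nonresponders 1 to 6. Responder 1 was the second highest of the 12 mice, and responders 2 to 6 lay below every nonresponder. With all mice the log2 fold change was -0.30 (SE 0.13, 95% interval -0.59 to -0.02, adjusted p 0.65). Leaving out responder 1 gave -0.41 with an adjusted p of 0.37. Vamp5 and Vamp8, its non-neuronal relatives, had estimates of -0.29 and -0.22 with all mice, and of -0.33 and -0.39 without responder 1, where the unadjusted p of both was under 0.05 and the adjusted p of both was 0.54. Vamp3, Vamp5 and Vamp8 are also expressed outside neurons, and the markers of myelinating Schwann cells (11 of 12 tested genes below 0, median log2 fold change -0.42), of fibroblasts and meninges (9 of 10, median -0.81), of endothelium (7 of 8, median -0.19) and of neutrophils (10 of 10, median -1.54) had estimates on the same side. So did those of skeletal muscle (12 of 12, median -1.49), of the central nervous system (5 of 6, median -0.76) and of satellite glia and nonmyelinating Schwann cells (9 of 12, median -0.08). Vamp5 had 13.7 FPKM in nonresponder 3 and 15.4 FPKM in nonresponder 4, the mice with the highest skeletal muscle sums. It also had 13.04 FPKM in nonresponder 5, whose muscle sum of 59.2 FPKM was the lowest among nonresponders. Nonresponder 1 and responder 2, next in muscle sum at 643.9 and 568.4 FPKM, had 10.5 and 10.06 FPKM of Vamp5. The part of these cell types in the values of Vamp3, Vamp5 and Vamp8 was not tested.

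Snap47 (chr11:59407134-59451186, minus strand) had 58.0, 61.7, 69.6, 62.1, 49.8 and 42.3 FPKM in responders 1 to 6, and 48.7, 48.8, 42.9, 39.9, 48.7 and 48.9 FPKM in nonresponders 1 to 6. Responders 1 to 5 lay above every nonresponder, while responder 6 lay below 5 of the 6. The log2 fold change was 0.29 (SE 0.12, 95% interval 0.03 to 0.55, adjusted p 0.64), and 0.27 with an unadjusted p above 0.05 without responder 1. It lay between 0.23 and 0.37 in the 24 other settings, with the highest estimate in the fit without responder 6. Its unadjusted p was under 0.05 in 14 of them. Markers of sensory neurons had estimates above 0 for 18 of 21 tested genes, with a median log2 fold change of 0.10, and the part of neuron content in the values of Syt7, Syt4, Syt5, Vamp4 and Snap47 was not tested.

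**Figure D4:**
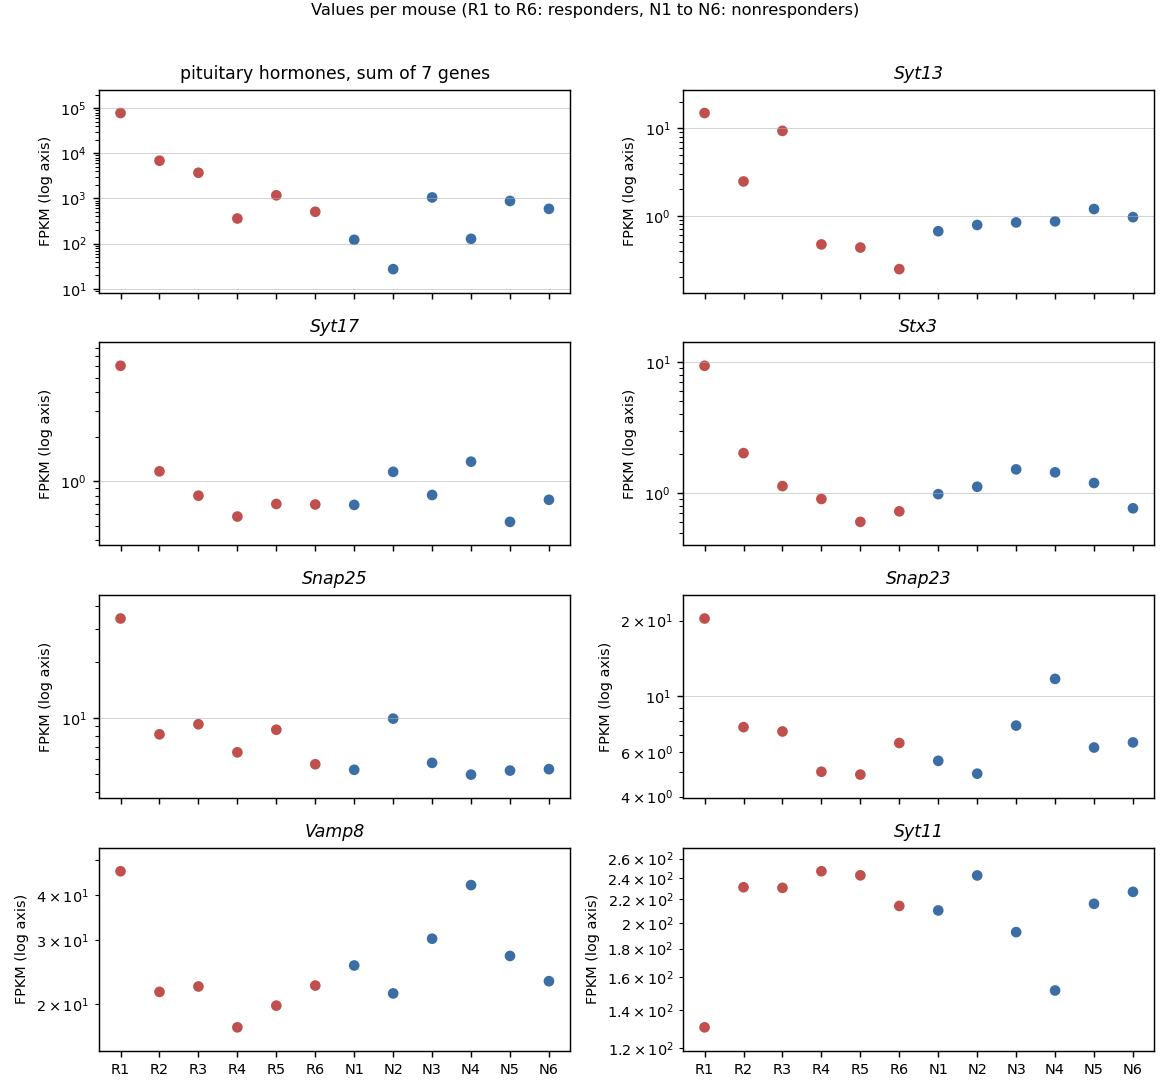
FPKM in each mouse on log axes, responders R1 to R6 in red and nonresponders N1 to N6 in blue, for the sum of 7 pituitary hormone genes and for 7 members. R1 stands at the top for the hormones (77880 FPKM), Syt13, Syt17, Stx3, Snap25, Snap23 and Vamp8, and at the bottom for Syt11 (130.5 FPKM).

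Several members were high in responder 1, the mouse with the pituitary transcripts. It held the highest value of 14 of the 39 tested members (35.9%), while it held the highest value of 24.4% of all genes tested. Syt13, a calcium-independent synaptotagmin known from endocrine cells, had 14.96, 2.47, 9.35, 0.47, 0.43 and 0.25 FPKM in responders 1 to 6, against 0.67 to 1.20 FPKM in nonresponders. Responders 1, 2 and 3 were the only mice above 2 FPKM, and they were also the mice with the highest hormone sums (77880, 6845 and 3708 FPKM), whereas responders 4, 5 and 6 lay below every nonresponder. Its estimate of 0.85 (SE 0.61, adjusted p 0.77), the largest of the 39 genes, was 0.39 without responder 1. Responder 3 was also the highest mouse for Gad1, Gad2 and Neurod2, while its sum over the whole central nervous system list (304.7 FPKM) lay within the nonresponder range. The part of central nervous system RNA in its Syt13 level was not tested.

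Stx3, the syntaxin of ribbon synapses and of the apical surface of secretory cells, had 9.36 FPKM in responder 1, 8.37 times the median of the other mice, and between 0.60 and 2.02 FPKM in the rest. Syt17 had 6.06 FPKM there, 8.07 times the median of the others. Snap25 had 34.2 FPKM in responder 1, against 5.63 to 9.23 FPKM in responders 2 to 6 and 4.95 to 9.90 FPKM in nonresponders, and Snap23 had 20.4 FPKM, 3.12 times the median of the others. For these genes responder 1 lay outside the range of all other mice. Leaving it out moved the estimate of Snap25 to 0.31, against 0.65 with all mice, that of Stx3 to -0.07, against 0.30, that of Syt17 to -0.05, against 0.26, and that of Snap23 to -0.11, against 0.13. The part of pituitary RNA in these levels was not tested.

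Nonresponder 4, the mouse with the neutrophil transcripts and the highest muscle sum, held the lowest value of 12 members (30.8%), while it held the lowest of 16.4% of all genes tested. It was lowest for Syt1 (2.71 FPKM) and Syt2 (22.4 FPKM), and it was highest for Stx11, a syntaxin that cytotoxic lymphocytes and platelets use for granule release, at 9.23 FPKM against 1.31 to 2.31 FPKM in the other nonresponders and 0.43 to 2.02 FPKM in responders. The Stx11 estimate was -0.64 (SE 0.35, adjusted p 0.72) with all mice and -0.20 without responder 1 and nonresponder 4. The part of blood cell RNA in it was not tested. Stx2 was high in another mouse, responder 5, with 20.4 FPKM against 6.16 to 9.83 FPKM in the other responders and 6.63 to 11.7 FPKM in nonresponders.

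Between the sexes, 8 of the 14203 genes passed the adjusted threshold with the response group as a covariate (limma, Benjamini-Hochberg), or 0.0563%, and 0 members did. At an unadjusted p under 0.05 there were 0 members, against 4.53% of all genes tested, and the smallest adjusted p of a member was 0.864. The largest estimate was that of Stx3, with a log2 difference of -0.57 (females minus males, SE 0.36), which includes responder 1, a male.

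For the interaction of response and sex, 0 genes passed the adjusted threshold (0%), and at an unadjusted p under 0.05 there were 2 of 39 members (5.13%), Stx6 and Syt9, against 5.01% of all genes tested. Since that share is near the background, the values of Stx6 and Syt9 are given as a description only. Syt9 had 4.48, 3.79 and 5.61 FPKM in male responders 1, 2 and 6, against 2.13, 2.20 and 1.58 FPKM in male nonresponders 2, 4 and 5. In females it had 2.38, 2.19 and 5.43 FPKM in responders 3, 4 and 5, against 4.10, 2.24 and 3.02 FPKM in nonresponders 1, 3 and 6. The interaction estimate of Syt9, the female response difference minus the male one, was -0.89 (SE 0.38, adjusted p 0.84 by limma).

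Stx6, a syntaxin of the trans-Golgi network and endosomes, had 4.36, 3.85 and 3.41 FPKM in female responders 3, 4 and 5, against 3.02, 2.11 and 2.30 FPKM in female nonresponders 1, 3 and 6. In males it had 3.38, 1.03 and 1.24 FPKM in responders 1, 2 and 6, against 2.50, 2.55 and 4.52 FPKM in nonresponders 2, 4 and 5. Its interaction estimate was 1.09 (SE 0.40, adjusted p 0.84). Of the 39 members, 21 had estimates of the same sign in females and males and 18 of opposite sign.

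Genes that act with the members were looked at as 4 lists, whose members were chosen from textbook roles. Of 32 tested regulators of fusion and release, 23 had estimates above 0 and 9 below, with a median log2 fold change of 0.09, and 0 passed the adjusted threshold (limma). At an unadjusted p under 0.05 there were 3 above and 1 below 0, while 7.4% of all genes tested had such a p. Cplx2, a complexin that clamps and promotes fusion, averaged 49.1 ± 5.63 FPKM in responders and 38.0 ± 6.94 FPKM in nonresponders (log2 fold change 0.37, adjusted p 0.60). Stxbp5l, a tomosyn, averaged 7.22 ± 0.99 FPKM in responders and 5.59 ± 1.28 FPKM in nonresponders (log2 fold change 0.33, adjusted p 0.60), and Unc13a, the priming factor Munc13-1, 8.50 ± 0.92 FPKM in responders and 6.52 ± 1.45 FPKM in nonresponders (log2 fold change 0.35, adjusted p 0.63). The groups overlapped in all 3 genes. Responder 1 was the highest mouse and nonresponder 4 the lowest for Cplx2 (55.3 and 28.0 FPKM) and for Unc13a (9.74 and 4.46 FPKM). Nonresponder 4 was also the lowest for Stxbp5l (3.89 FPKM).

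Of 14 tested vesicle membrane proteins outside the Syt and Vamp families, 9 had estimates above 0 and 5 below, with a median of 0.11, and 0 had an unadjusted p under 0.05. The smallest p values belonged to Sv2a, the vesicle glycoprotein bound by levetiracetam, with a log2 fold change of 0.51, the synaptogyrin Syngr2 with 0.66 and the synapsin Syn3 with 0.18, at adjusted p values of 0.69 to 0.74. Sv2a had 30.5 FPKM in responder 3 and 17.4 FPKM in responder 1. It had 9.53 to 11.9 FPKM in the other responders and 7.74 to 11.5 FPKM in nonresponders. Of 12 other SNARE genes, 9 lay above and 3 below 0, with a median of 0.05. Vti1b, an endosomal SNARE, averaged 7.36 ± 1.23 FPKM in responders and 10.3 ± 1.97 FPKM in nonresponders (log2 fold change -0.44, adjusted p 0.51), the only one with an unadjusted p under 0.05. Sec22b and Vti1a came next, with log2 fold changes of 0.19 and 0.09. Of 8 tested relatives with C2 domains, 5 lay above and 3 below 0, with a median of 0.10. Myof, a membrane repair ferlin, averaged 1.09 ± 0.33 FPKM in responders and 1.93 ± 0.51 FPKM in nonresponders (log2 fold change -0.49, adjusted p 0.50) and was the only one with an unadjusted p under 0.05. Sytl4, the granuphilin of endocrine granules, had 25.8 FPKM in responder 1 and at most 3.97 FPKM in the other mice, with an adjusted p of 0.73, and Esyt2 had a log2 fold change of -0.13.

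Spread between mice of the same group bounds the differences that 6 mice a group can show. The median coefficient of variation within groups was 29.0% over the 39 tested members and 22.0% over all genes tested, and whether these medians differ was not tested. The description of each mouse opens with a number: 44, 45, 48 or 49 for responders, against 68, 82 or 83 for nonresponders. The sources used here do not say what the number means, and no number was shared by both groups, so that what it marks and the response cannot be told apart.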

How the data were processed

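RNA sequencing of trigeminal ganglia gave 1 library for each of 12 mice. The authors deposited 1 table with a value per Ensembl gene and mouse, taken as FPKM from its values because the header names no unit. The tools named in the submitters' processing notes were STAR (2.6.0a) with StringTie (1.3.5), on GRCm38 (mm10); the sources used here do not give their settings or annotation. No counts were used. Fragment numbers per mouse were estimated from the spacing of low values of single-exon genes. The fit of these values to an even spacing, as a mean cosine, was only 0.187 to 0.255. The table held 0 pairs of identical columns and 0 columns of other samples.

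Groups and replicate numbers came from the sample titles. Symbols and GRCm38 coordinates came from GENCODE M21, which held 51076 of 51341 identifiers. Members and gene lists were chosen with earlier results of these data known. Values were tested as log2(FPKM + 1), which understates changes of low genes, with limma 3.58.1 in R 4.3.3 (2-sided, eBayes defaults, 9 residual and 2.23 prior degrees of freedom) over the 14203 genes that reached 1 FPKM in 3 or more mice, with sex as a covariate. The sex comparison came from the same fit, and within-sex and interaction values from 4 cell means over all 12 mice. P-values were adjusted by the Benjamini-Hochberg method over all genes tested, with a threshold of 0.05. Each mouse counts as 1 replicate, and the sources used here do not say whether mice were litter mates.

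Named with values were the 5 most abundant members of each family, members with an unadjusted p under 0.05 or groups that did not overlap, members above 5 times their median in 1 mouse, members with an outlying mouse, members under the filter and, from each list of genes that act with the members, the 3 with the smallest p. For the cell type marker lists, sums and counts are given in place of single genes. Actb was chosen after its values were seen. Alternatives covered the pseudocount, filter, scaling, variance model, covariates, replicate block, single mice and averaging by description number. Transcripts were compared with blastn 2.17.0 (at least 90% identity over 200 bases). Protein sequences were not used here. The values of 1 member that is in the counts and sums are not reported here.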

Additional observations from a re-analysis of the deposited data

Results flagged for a closer look

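In a group of 6 mice, a mouse was marked when its gap to the nearest other mouse, divided by the range of the group, exceeded 0.625, the 95% critical value of Dixon's test. Chance marks about 1 in 20 groups. Of 78 groups (39 genes in responders and in nonresponders), 16 (20.5%) were marked, in 15 genes. By the same measure 17.0% of the 28406 groups of all genes tested were marked, so the share among the members is near the background.

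Responder 1 was marked in 12 of the genes (30.8% of the 39), and in 15.6% of all genes tested. It was the lowest responder for Syt11, at 130.5 FPKM. It was the highest for Syt14 (4.79 FPKM), Syt16 (2.20 FPKM), Syt17 (6.06 FPKM), Stx3 (9.36 FPKM), Stx4a (18.003 FPKM), Stx16 (15.7 FPKM), Stx18 (14.5 FPKM), Vamp3 (23.6 FPKM), Vamp8 (46.5 FPKM), Snap23 (20.4 FPKM) and Snap25 (34.2 FPKM). Its pituitary hormone sum was 77880 FPKM, and the part of these transcripts in the marked values was not tested.

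Responder 5 was marked as the highest for Stx2, at 20.4 FPKM. Nonresponder 4, whose neutrophil sum was 4290 FPKM and skeletal muscle sum 2474 FPKM, was marked as the highest nonresponder for Stx11 (9.23 FPKM) and the lowest for Snap91 (22.7 FPKM). Nonresponder 2 was marked as the highest nonresponder for Snap25, at 9.90 FPKM.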

How the results depend on the processing

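The count of members past the adjusted threshold was 0 in all 24 other settings of the response comparison, and 0 in all 16 of the sex comparison and of the interaction. The 24th setting, without both responder 1 and nonresponder 4, was chosen after seeing the data. The genes called in the response comparison, 3 as reported, were 1 with the replicate block, 1 with mice averaged by description number, and 2 to 6 without single mice. The 8 members at an unadjusted p under 0.05 became 4 with mice averaged by description number (7 values) and 4 to 9 without single mice. Left out alone, responder 4, responder 5 and nonresponder 3 each gave 4 such members, and responder 2, nonresponder 1, nonresponder 4 and nonresponder 6 each gave 5. Over the 24 settings such members made up 10.3% to 25.6% of those tested, against 5.60% to 11.2% of all genes tested in the same fits. With mice averaged by description number these shares were 11.1% of members and 7.24% of all genes. Genes called were 5 without responder 2 and 6 without responder 5 or responder 6. The interaction called 0 genes as reported and 0 to 3 without single mice. Family medians of the log2 fold change kept their side of 0 for Syt (0.13 to 0.28), Vamp (-0.36 to -0.17) and Snap (0.10 to 0.29), while that of Stx ranged from -0.06 to 0.06. The median of all genes lay between -0.0096 and 0.021 over all settings. The sample titles do not say whether replicate numbers pair the mice. Same-numbered mice deviated from their group means with correlations of -0.27 to 0.13, with 1 of 6 pairs over 0.1. In this measure, 0 responders were closest to the nonresponder of their number. Sex was not removed from the deviations, and some same-numbered mice differ in sex, so these correlations cannot decide on a pairing. With values in FPKM and no counts, interval estimates from read numbers were not made.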
